A study of Mus musculus with 12 samples.

Results

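The interferon response genes are 30 genes that cells switch on when interferon reaches them, and they were followed here in optic nerve RNA of NF1 mice, which model the tumour syndrome neurofibromatosis type 1. They were found by symbol in a table of read counts, where all 30 were present among 35275 listed genes. All 30 were among the 18344 genes that passed the filter on low counts. The genes were grouped by what their products do: 3 IFIT genes, 3 OAS genes, 2 genes of the ISG15 system, 4 transcription factors, 4 sensors of RNA or DNA, 4 GTPases, 3 membrane and lipid effectors, 1 chemokine and 6 other effectors and regulators.

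Each library was made from poly(A) RNA of optic nerve, and the groups were NF1 mice given carboplatin (3 libraries), a platinum compound that binds and cross-links DNA, NF1 mice given selumetinib (3 libraries), an inhibitor of the MEK kinases, and NF1 mice given phosphate-buffered saline (PBS, 6 libraries) as the control. All 12 libraries therefore came from the NF1 model, with no wild-type group used here. The labels call the cell type nerve cells and give no allele of Nf1, Cre driver, age, dose or schedule, and they do not say which libraries were separate animals. Each p-value therefore reflects only the variation among these libraries, part of which may be technical. The libraries held 21793052 to 33375754 counts, and the 30 genes had between 12 counts (Mx1) and 3953 counts (Ifit3) in a library.

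Interferons are secreted proteins that warn neighbouring cells of virus or of nucleic acid in the wrong place. Type I interferon binds the receptor chains IFNAR1 and IFNAR2, the kinases JAK1 and TYK2 then phosphorylate STAT proteins, among them STAT2, which joins IRF9 in a complex that binds interferon-stimulated response elements (ISRE) in the promoters of target genes. Interferon gamma acts through its own receptor with JAK1 and JAK2, and promoters of its target genes carry gamma-activated sites (GAS). In the central nervous system microglia, astrocytes, border macrophages and endothelium can all respond.

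The selumetinib group was split in these genes. Levels are given as CPM, a count divided by its library's TMM-adjusted total and rescaled, and a shift is log2 CPM minus the mean log2 CPM of the 6 PBS libraries. The median shift of the 30 genes was -0.50 in carboplatin 1, -0.58 in carboplatin 2 and -0.48 in carboplatin 3. It was -1.47 in selumetinib 1 and -1.60 in selumetinib 2, but -0.01 in selumetinib 3. In PBS it was 0.76, -0.24, 0.28, -0.20, -0.01 and -0.40 in replicates 1 to 6, with an SD of 0.426 over the 6 libraries. The 3 carboplatin libraries thus lay close to each other and below all 6 PBS libraries, selumetinib 1 and 2 lay far below every other library, and selumetinib 3 lay within the PBS range. The same median over all 18344 genes was between -0.0503 and 0.00499 in every library.

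**Figure D1:**
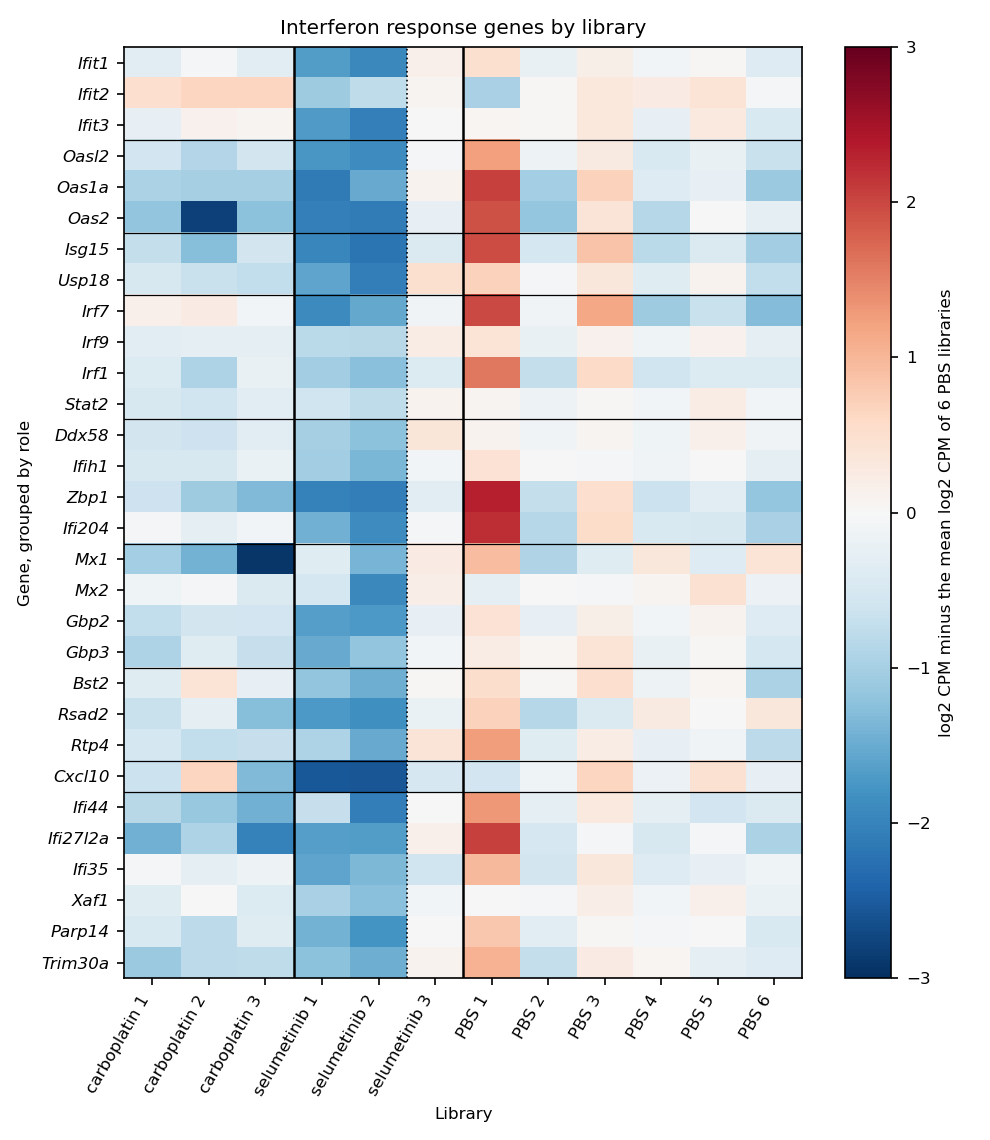
Heat map of 30 interferon response genes (rows, grouped by role) in 12 libraries (columns); colour is log2 CPM minus the mean of the 6 PBS libraries, and the dotted line sets selumetinib 3 apart. Selumetinib 1 and 2 are below the PBS mean for all 30 genes, selumetinib 3 for 16 of 30, and PBS 1 is above it for 27 of 30.

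All 30 genes had a lower CPM in selumetinib 1 and in selumetinib 2 than in selumetinib 3, a pattern that 43.3% of all genes tested showed. For 24 of 30 genes selumetinib 1 and 2 were below the other 10 libraries, against 15.4% of all genes. Selumetinib 3 exceeded the higher of selumetinib 1 and 2 by between 1.54-fold (Irf1 and Mx1) and 4.22-fold (Cxcl10), with a median of 2.62-fold. For 23 of 30 genes selumetinib 3 lay within the range of PBS 2 to 6, against 73.7% of all genes. The lowest CPM of the 12 libraries was in selumetinib 2 for 22 genes and in selumetinib 1 for 5 genes. The shares of all genes lowest in these 2 libraries were not computed. The highest was in PBS 1 for 22 genes, against 30.2% of all genes tested.

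Libraries that stood apart in these genes also stood apart in markers of cell types and of neighbouring tissue. The summed CPM of 12 microglia markers was 805 to 1170 in carboplatin, 636 in selumetinib 1, 527 in selumetinib 2 and 1040 in selumetinib 3, against 508 in PBS 1 and 1090 to 1310 in PBS 2 to 6. The summed CPM of 9 neuron markers was 362 to 454 in carboplatin, 2610 in selumetinib 1, 2600 in selumetinib 2 and 494 in selumetinib 3, against 102 to 838 in PBS. The summed CPM of 10 mature oligodendrocyte markers was 50600 to 95000 in carboplatin, 27600 in selumetinib 1, 19000 in selumetinib 2 and 64800 in selumetinib 3, against 28300 in PBS 1 and 58700 to 68700 in PBS 2 to 6. The summed CPM of 8 astrocyte markers was 11700 to 16100 in carboplatin, 5480 in selumetinib 1, 4790 in selumetinib 2 and 8870 in selumetinib 3, against 3960 in PBS 1 and 9090 to 12600 in PBS 2 to 6. The 10 border macrophage and monocyte markers summed to 28.5 to 123 CPM in carboplatin, 41.2 in selumetinib 1, 31.8 in selumetinib 2 and 107 in selumetinib 3, against 584 in PBS 1 and 67.2 to 129 in PBS 2 to 6, with at most 1 of the 10 at 0 in a library. All 10 had a negative log2 fold change in carboplatin against PBS (median -1.25), and edgeR called 2 of them lower, against 2.09% of all genes tested. The 7 red blood cell markers summed to 12.6 to 87.0 CPM in carboplatin and 631 to 1500 CPM in selumetinib, against 241 to 7890 CPM in PBS, with up to 2 of the 7 at 0 in a library. In carboplatin against PBS 5 of these 7 were called lower, with a median log2 fold change of -5.91. PBS 1 also held 81600 CPM of 10 skeletal muscle markers, against 12.8 to 369 in PBS 2 to 6, and 24.3 CPM of 12 T and NK cell markers. Skeletal muscle markers summed to 137 to 2330 CPM in carboplatin, highest in carboplatin 1, and to 10.3 to 22.7 CPM in selumetinib. The T and NK cell markers summed to 1.47 to 3.57 CPM in carboplatin and 4.49 to 8.55 CPM in selumetinib, against 3.59 to 9.56 CPM in PBS 2 to 6, with up to 3 of the 12 at 0 in a library. The 8 photoreceptor markers of the adjoining retina summed to 41.6 to 1570 CPM in carboplatin and 0.428 to 3.01 CPM in selumetinib, against 0.677 to 130 CPM in PBS. The 8 pigment epithelium and melanocyte markers summed to 48.1 to 1150 CPM in carboplatin and 3.05 to 4.53 CPM in selumetinib, against 4.16 to 36.3 CPM in PBS. EdgeR called 3 of these 8 higher in carboplatin against PBS, against 2.09% of all genes tested. Astrocyte and mature oligodendrocyte markers, which define the glia of this tissue, were above 0 in every library. Y-linked genes had 0 counts in PBS 1, carboplatin 1 and all 3 selumetinib libraries, unlike the other 7. Xist had 9137 to 22968 counts in the libraries without Y-linked counts and 4 to 259 in the other 7. In bulk RNA, fewer cells of a type and less RNA per cell cannot be told apart. The part of cell composition and muscle RNA in the results on the 30 genes was not tested. Sex was examined only by a Y-linked term, given below, which rests on PBS 1 and carboplatin 1 as the only such libraries outside selumetinib.

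**Figure D2:**
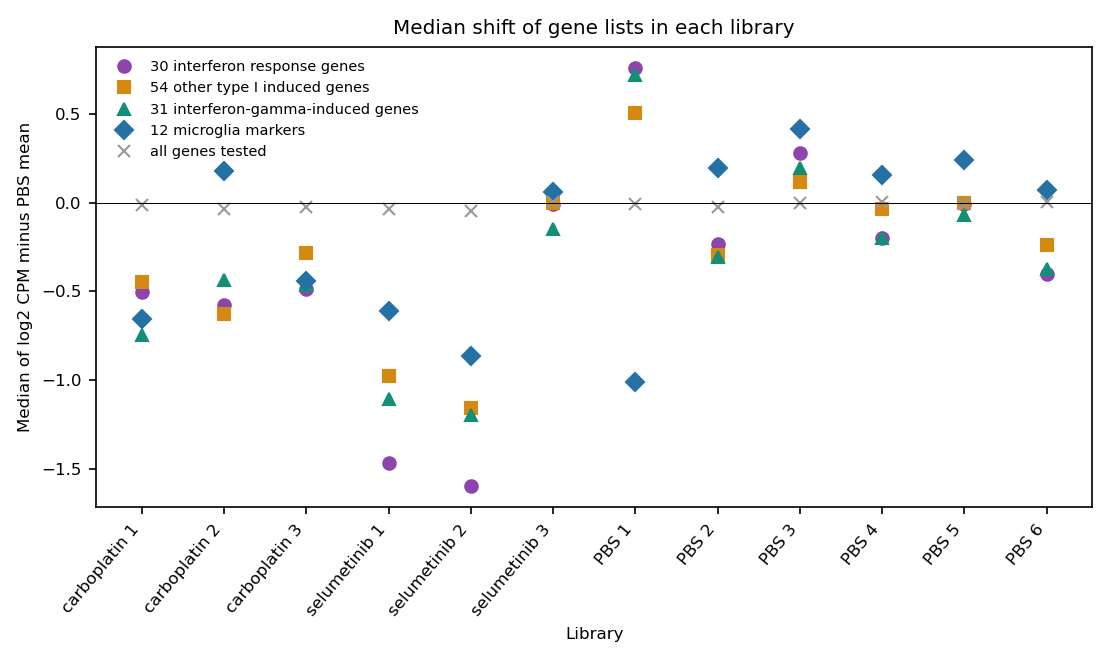
Median over each gene list of log2 CPM minus the PBS mean (vertical axis) in each of the 12 libraries (horizontal axis); each symbol is 1 list. The 3 interferon lists lie between -1.60 and -0.98 in selumetinib 1 and 2 and near 0 in selumetinib 3, and in PBS 1 they are above 0 while the microglia markers are at -1.01.

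Promoter windows were searched for exact matches to short forms of the sites that STAT and IRF proteins bind. Sites that differ from these forms in a letter or in spacing were not counted. RefSeq windows of 300 bases (250 before and 50 after the transcription start, build GRCm38.p6) were on hand for 21 of the 30 genes. The ISRE was searched as GAAANNGAAA, or TTTCNNTTTC on the other strand, and the GAS as TTCNNNGAA, which reads the same on both strands. These genes had 26 windows, since some have more than 1 start. An ISRE match lay in 14 of the 26 windows, against 3.44% of 32851 windows of all genes, and belonged to 13 genes (Ifit1, Ifit3, Oas1a, Isg15, Stat2, Ddx58, Ifih1, Gbp2, Gbp3, Bst2, Rsad2, Cxcl10 and Trim30a). A GAS match lay in 5 of the 26 windows, against 8.30% of all windows, and belonged to 5 genes (Ifit2, Oas1a, Irf1, Bst2 and Ifi35). In Bst2 the GAS match overlapped an ISRE match.
The windows of 5 genes are shown as examples that hold 1 site type or the other, with ISRE or GAS matches in capitals on the gene's own strand. Whether the site type bears on a gene's levels across the groups was not tested. Isg15 (chr4:156200769-156201068, minus strand) holds 3 overlapping ISRE matches that start at -78, -72 and -66 relative to the start site. Ifit1 (chr19:34640639-34640938, plus strand) and Ifit3 (chr19:34583279-34583578, plus strand) hold 2 each, at -104 and -85 in Ifit1 and at -156 and -122 in Ifit3. Ifit2 (chr19:34550444-34550743, plus strand), the neighbour of Ifit3, holds a GAS match at -241, and Irf1 (chr11:53769764-53770063, plus strand) holds a GAS match at -90. Ifit2 and Irf1 each have another window, not shown, without a match to either site.
Isg15: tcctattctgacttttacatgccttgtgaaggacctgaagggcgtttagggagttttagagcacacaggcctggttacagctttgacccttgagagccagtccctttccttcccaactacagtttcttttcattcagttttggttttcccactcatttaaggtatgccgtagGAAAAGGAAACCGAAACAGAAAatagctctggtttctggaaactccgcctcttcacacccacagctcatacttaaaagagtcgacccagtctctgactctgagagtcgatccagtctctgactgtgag
Ifit1: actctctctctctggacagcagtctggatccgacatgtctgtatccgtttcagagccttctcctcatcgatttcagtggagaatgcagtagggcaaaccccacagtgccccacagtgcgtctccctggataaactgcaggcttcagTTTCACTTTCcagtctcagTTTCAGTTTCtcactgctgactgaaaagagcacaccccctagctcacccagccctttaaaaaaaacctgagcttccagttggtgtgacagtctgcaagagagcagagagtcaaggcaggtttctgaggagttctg
Ifit3: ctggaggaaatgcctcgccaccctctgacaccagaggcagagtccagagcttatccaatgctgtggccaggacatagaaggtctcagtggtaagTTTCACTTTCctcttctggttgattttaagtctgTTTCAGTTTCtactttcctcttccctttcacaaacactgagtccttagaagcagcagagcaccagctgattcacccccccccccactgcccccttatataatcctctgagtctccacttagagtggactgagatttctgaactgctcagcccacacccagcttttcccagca
Ifit2: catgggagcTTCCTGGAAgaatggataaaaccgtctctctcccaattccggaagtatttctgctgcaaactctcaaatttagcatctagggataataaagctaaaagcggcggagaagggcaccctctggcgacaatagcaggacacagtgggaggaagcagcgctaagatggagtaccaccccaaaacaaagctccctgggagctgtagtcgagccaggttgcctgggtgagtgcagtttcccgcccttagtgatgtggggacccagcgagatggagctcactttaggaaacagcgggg
Irf1: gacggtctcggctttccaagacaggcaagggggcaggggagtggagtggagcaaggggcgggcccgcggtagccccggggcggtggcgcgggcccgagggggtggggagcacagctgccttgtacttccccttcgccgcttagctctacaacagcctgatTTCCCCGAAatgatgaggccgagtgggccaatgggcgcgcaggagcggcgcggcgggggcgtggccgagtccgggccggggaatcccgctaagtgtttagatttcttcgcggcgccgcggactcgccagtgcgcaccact

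In PBS nerve the 30 genes were all detected, at levels that differed widely once divided by exon length (CPM per kilobase of exon, GENCODE M21). Ifit3, an RNA-binding partner of the other IFIT proteins, had the highest median level, at 62.2 CPM per kilobase in PBS, followed by Ifi27l2a, a small membrane protein, at 50.3 and Bst2, the tetherin that holds budding virus on the cell surface, at 41.1. Ifi44 had the lowest, at 0.683 CPM per kilobase, below Mx1 at 0.939 and Mx2 at 1.09. Ranges over the 6 PBS libraries were wide and overlapped between neighbours in this order: Ifit3 ran over 43.8 to 74.5, Ifi27l2a over 30.9 to 253 and Bst2 over 20.8 to 57.5 CPM per kilobase. Many of these genes have close relatives next to them in the genome (the IFIT, OAS, Mx, Gbp, Ifi200 and Trim30 clusters), and how reads shared between such copies were counted is not stated. Exons of Usp18, Irf7, Irf9, Irf1, Gbp2, Rtp4, Cxcl10, Ifi35 and Parp14 overlap another annotated gene (GENCODE M21), which leaves their counts uncertain where reads were shared. The ratio of highest to lowest CPM over all 12 libraries ran from 2.00-fold for Stat2 to 28.5-fold for Oas2, with a median of 6.04-fold.

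The IFIT genes encode proteins that bind viral RNA and block its translation, and they lie next to each other on chromosome 19. Ifit1 (ENSMUSG00000034459, 34640871 to 34650009, mm10) had 37.2, 45.1 and 37.0 CPM in carboplatin, 14.3 and 12.1 CPM in selumetinib 1 and 2 and 51.4 CPM in selumetinib 3, against 35.1 to 64.4 CPM with a median of 45.2 in PBS. Carboplatin libraries lay within the PBS range, and selumetinib 1 and 2 lay below it while selumetinib 3 did not. For Ifit1 the log2 fold change was -0.24 ± 0.40 for carboplatin and -0.86 ± 0.41 for selumetinib against PBS (SE derived from the edgeR test, adjusted p 0.801 and 0.226).
Ifit2 (34550694 to 34576419) stood apart from the other 29 genes in carboplatin. It had 86.3, 95.1 and 95.2 CPM in carboplatin, 29.3 and 35.9 CPM in selumetinib 1 and 2 and 64.7 CPM in selumetinib 3, against 31.1 CPM in PBS 1 and 59.0 to 82.0 CPM in PBS 2 to 6. All 3 carboplatin libraries were above all 6 PBS libraries and above all 3 selumetinib libraries, and PBS 1, highest for most of the 30 genes, was the lowest PBS library here. Against PBS the log2 fold change was 0.53 ± 0.29 for carboplatin (edgeR adjusted p 0.404), the single positive value among the 30 genes.
Ifit3 had 89.0, 115 and 111 CPM in carboplatin, 32.4 and 25.2 CPM in selumetinib 1 and 2 and 105 CPM in selumetinib 3, against 76.5 to 130 CPM with a median of 108 in PBS. Its log2 fold change was -0.02 ± 0.38 for carboplatin and -0.98 ± 0.40 for selumetinib against PBS (edgeR adjusted p 0.988 and 0.173).

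The OAS enzymes make short oligoadenylates that activate RNase L, an enzyme that cuts RNA, and Oasl2 is a related OAS-like protein. Oas2 (ENSMUSG00000032690, chromosome 5, 120730333 to 120749853) had 2.93, 0.897 and 2.84 CPM in carboplatin, 1.56 and 1.53 CPM in selumetinib 1 and 2 and 5.69 CPM in selumetinib 3, against 25.6 CPM in PBS 1 and 2.97 to 8.85 CPM in PBS 2 to 6. The carboplatin libraries were each below all 6 PBS libraries, by a narrow margin to PBS 2. Oas2 had a log2 fold change of -1.99 ± 0.79 for carboplatin and -1.60 ± 0.78 for selumetinib against PBS (edgeR adjusted p 0.242 and 0.230), and without PBS 1 the values were -1.32 and -0.92. Oas1a and Oasl2 were also highest in PBS 1, at 24.8 and 114 CPM, and Oas1a was within 2.94 to 3.05 CPM in the 3 carboplatin libraries.

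Isg15 is a ubiquitin-like protein that is attached to other proteins during the response, and Usp18 removes it and also restrains the type I receptor. Isg15 (ENSMUSG00000035692, chromosome 4, 156199424 to 156200818) had 12.1, 8.12 and 13.6 CPM in carboplatin, 5.06 and 4.26 CPM in selumetinib 1 and 2 and 14.6 CPM in selumetinib 3, against 77.2 CPM in PBS 1, 35.8 CPM in PBS 3 and 9.50 to 14.7 CPM in the other 4 PBS libraries. Carboplatin and PBS overlapped, and so did selumetinib 3 and PBS. The log2 fold change was -1.26 ± 0.72 for carboplatin and -1.76 ± 0.74 for selumetinib against PBS (edgeR adjusted p 0.416 and 0.182), and both rest on a PBS mean of 27.0 ± 26.4 CPM (SD, n = 6) that PBS 1 and PBS 3 carry. Usp18 had 18.4 CPM in selumetinib 3, against 4.39 and 3.09 CPM in selumetinib 1 and 2 and 7.97 to 21.6 CPM in PBS.

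Of the transcription factors, Irf7 amplifies type I interferon production, Irf9 and Stat2 are parts of the ISRE-binding complex, and Irf1 is induced mainly by interferon gamma. Irf7 (ENSMUSG00000025498, chromosome 7, 141262706 to 141266481) had 21.7, 23.3 and 18.4 CPM in carboplatin, 5.17 and 6.71 CPM in selumetinib 1 and 2 and 18.3 CPM in selumetinib 3, against 77.6, 18.1 and 43.9 CPM in PBS 1 to 3 and 9.28, 12.3 and 7.94 CPM in PBS 4 to 6. All 3 carboplatin libraries were above PBS 2 and PBS 4 to 6 and below PBS 1 and PBS 3, so the side on which carboplatin lay depended on the controls used. The log2 fold change of Irf7 was -0.42 ± 0.73 for carboplatin and -1.49 ± 0.77 for selumetinib against PBS (edgeR adjusted p 0.809 and 0.253). An exon of Irf7 overlaps Phrf1 on the opposite strand, and the strand setting of the counting is not stated.
Stat2 (ENSMUSG00000040033, chromosome 10, 128270559 to 128292849) varied least. It had 26.9, 24.6 and 30.2 CPM in carboplatin, 24.7 and 21.9 CPM in selumetinib 1 and 2 and 40.7 CPM in selumetinib 3, against 33.6 to 43.9 CPM with a median of 36.9 in PBS. The carboplatin libraries were each below all 6 PBS libraries, with a log2 fold change of -0.47 ± 0.19 (edgeR adjusted p 0.242). Irf1 was at 90.7 CPM in PBS 1 and 45.2 CPM in PBS 3, against 18.5 to 22.8 CPM in the other 4 PBS libraries, and Irf9 was at 17.9 and 17.8 CPM in selumetinib 1 and 2 and 24.9 to 42.0 CPM in the other 10 libraries.

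Ddx58 (RIG-I) and Ifih1 (MDA5) detect viral RNA, Zbp1 detects nucleic acid in the Z form and can start necroptosis, and Ifi204 is a DNA sensor of the p200 family. Zbp1 (ENSMUSG00000027514, chromosome 2, 173206612 to 173218923) had 3.63, 2.65 and 2.20 CPM in carboplatin, 1.31 and 1.28 CPM in selumetinib 1 and 2 and 4.49 CPM in selumetinib 3, against 28.6 CPM in PBS 1 and 2.46 to 8.0 CPM in PBS 2 to 6. Outside PBS 1 the carboplatin and PBS libraries overlapped. For Zbp1 the log2 fold change was -1.57 ± 0.83 for carboplatin and -1.83 ± 0.85 for selumetinib against PBS (edgeR adjusted p 0.380 and 0.213).
Ddx58 had 19.1, 18.3 and 22.3 CPM in carboplatin, 14.1 and 11.9 CPM in selumetinib 1 and 2 and 36.5 CPM in selumetinib 3, against 25.9 to 31.4 CPM with a median of 28.0 in PBS. Carboplatin was below PBS in every library, and selumetinib 3 was the highest of the 12 libraries for this gene. The log2 fold change of Ddx58 for carboplatin against PBS was -0.51 ± 0.30 (edgeR adjusted p 0.431). Ifi204 was at 32.3 CPM in PBS 1 and at 3.45 to 10.2 CPM in PBS 2 to 6.

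Mx1 and Mx2 are dynamin-like GTPases that trap viral nucleoproteins, and Gbp2 and Gbp3 are guanylate-binding proteins that coat membranes of intracellular pathogens. Mx1 (ENSMUSG00000000386, chromosome 16, 97447035 to 97462907) had 1.69, 1.26 and 0.401 CPM in carboplatin, 2.72 and 1.28 CPM in selumetinib 1 and 2 and 4.19 CPM in selumetinib 3, against 1.84 to 6.71 CPM with a median of 3.55 in PBS. All 3 carboplatin libraries were below all 6 PBS libraries, while selumetinib overlapped both. Mx1 had a log2 fold change of -1.77 ± 0.58 for carboplatin and -0.49 ± 0.54 for selumetinib against PBS (edgeR adjusted p 0.157 and 0.581), and Mx1 had the smallest p of the 30 genes for carboplatin.
Gbp2 had 36.6, 41.7 and 40.6 CPM in carboplatin, 19.5 and 18.4 CPM in selumetinib 1 and 2 and 51.7 CPM in selumetinib 3, against 46.7 to 82.3 CPM with a median of 61.6 in PBS. Carboplatin was again below PBS in every library. The log2 fold change of Gbp2 was -0.65 ± 0.32 for carboplatin and -1.06 ± 0.32 for selumetinib against PBS (edgeR adjusted p 0.337 and 0.107).

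Among membrane and lipid effectors, Bst2 is tetherin, Rsad2 (viperin) makes a nucleotide that stops viral RNA synthesis, and Rtp4 is a receptor-transporting protein. Rtp4 (ENSMUSG00000033355, chromosome 16, 23520291 to 23614222) had 8.89, 7.58 and 7.88 CPM in carboplatin, 6.76 and 4.44 CPM in selumetinib 1 and 2 and 16.6 CPM in selumetinib 3, against 30.8 CPM in PBS 1 and 7.37 to 14.9 CPM in PBS 2 to 6. The carboplatin libraries lay at the lower end of the PBS range. For Rtp4 the log2 fold change was -0.82 ± 0.49 for carboplatin and -0.63 ± 0.49 for selumetinib against PBS (edgeR adjusted p 0.445 and 0.427). Without PBS 1 these values were -0.45 and -0.25.

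Cxcl10, the chemokine that draws CXCR3-bearing T cells, had the widest gap between the selumetinib libraries. Cxcl10 (ENSMUSG00000034855, chromosome 5, 92346638 to 92348889) had 8.28, 20.4 and 5.21 CPM in carboplatin, 2.19 and 2.13 CPM in selumetinib 1 and 2 and 9.24 CPM in selumetinib 3, against 8.80 to 20.6 CPM with a median of 11.8 in PBS. Unlike most of the 30 genes it was lowest among PBS libraries in PBS 1, and carboplatin 2 was about level with the highest PBS library while carboplatin 1 and 3 were below all 6. Cxcl10 had a log2 fold change of -0.27 ± 0.55 for carboplatin and -1.60 ± 0.59 for selumetinib against PBS (edgeR adjusted p 0.837 and 0.145). An exon of Cxcl10 overlaps Art3 on the opposite strand.

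The other effectors include Ifi44 and Ifi35, which are cytoplasmic interferon-induced proteins, Xaf1, which favours apoptosis, Parp14, an ADP-ribosyltransferase, and Trim30a, which restrains Toll-like receptor signalling. Ifi27l2a (ENSMUSG00000079017, chromosome 12, 103442167 to 103443680) had 10.2, 14.6 and 6.84 CPM in carboplatin, 8.81 and 8.73 CPM in selumetinib 1 and 2 and 30.8 CPM in selumetinib 3, against 117 CPM in PBS 1 and 14.3 to 27.3 CPM in PBS 2 to 6. Of the 30 genes it had the largest excess of PBS 1 over the highest of PBS 2 to 6, 4.29-fold, and carboplatin 2 just overlapped PBS 6. The log2 fold change of Ifi27l2a was -1.83 ± 0.75 for carboplatin and -1.21 ± 0.72 for selumetinib against PBS (edgeR adjusted p 0.253 and 0.310). Without PBS 1 they were -1.05 and -0.42, and without selumetinib 3 the value for selumetinib was -2.03.
Ifi35 had 16.2, 13.9 and 15 CPM in carboplatin, 5.52 and 6.46 CPM in selumetinib 1 and 2 and 10.9 CPM in selumetinib 3, against 11.4 to 32.9 CPM with a median of 14.5 in PBS. It was the 1 gene of the 30 below PBS in all 3 selumetinib libraries, narrowly so in selumetinib 3, against 2.70% of all genes tested, and its log2 fold change for selumetinib against PBS was -1.23 ± 0.36 (edgeR adjusted p 0.100).
Ifi44 had 2.87, 2.28 and 1.84 CPM and Trim30a 6.74, 8.52 and 8.58 CPM in carboplatin, against 3.42 to 12.8 CPM and 8.96 to 30.3 CPM in PBS. Both were below PBS in every carboplatin library, with log2 fold changes of -1.31 ± 0.54 and -1.0 ± 0.44 (edgeR adjusted p 0.258 and 0.282).

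**Figure D3:**
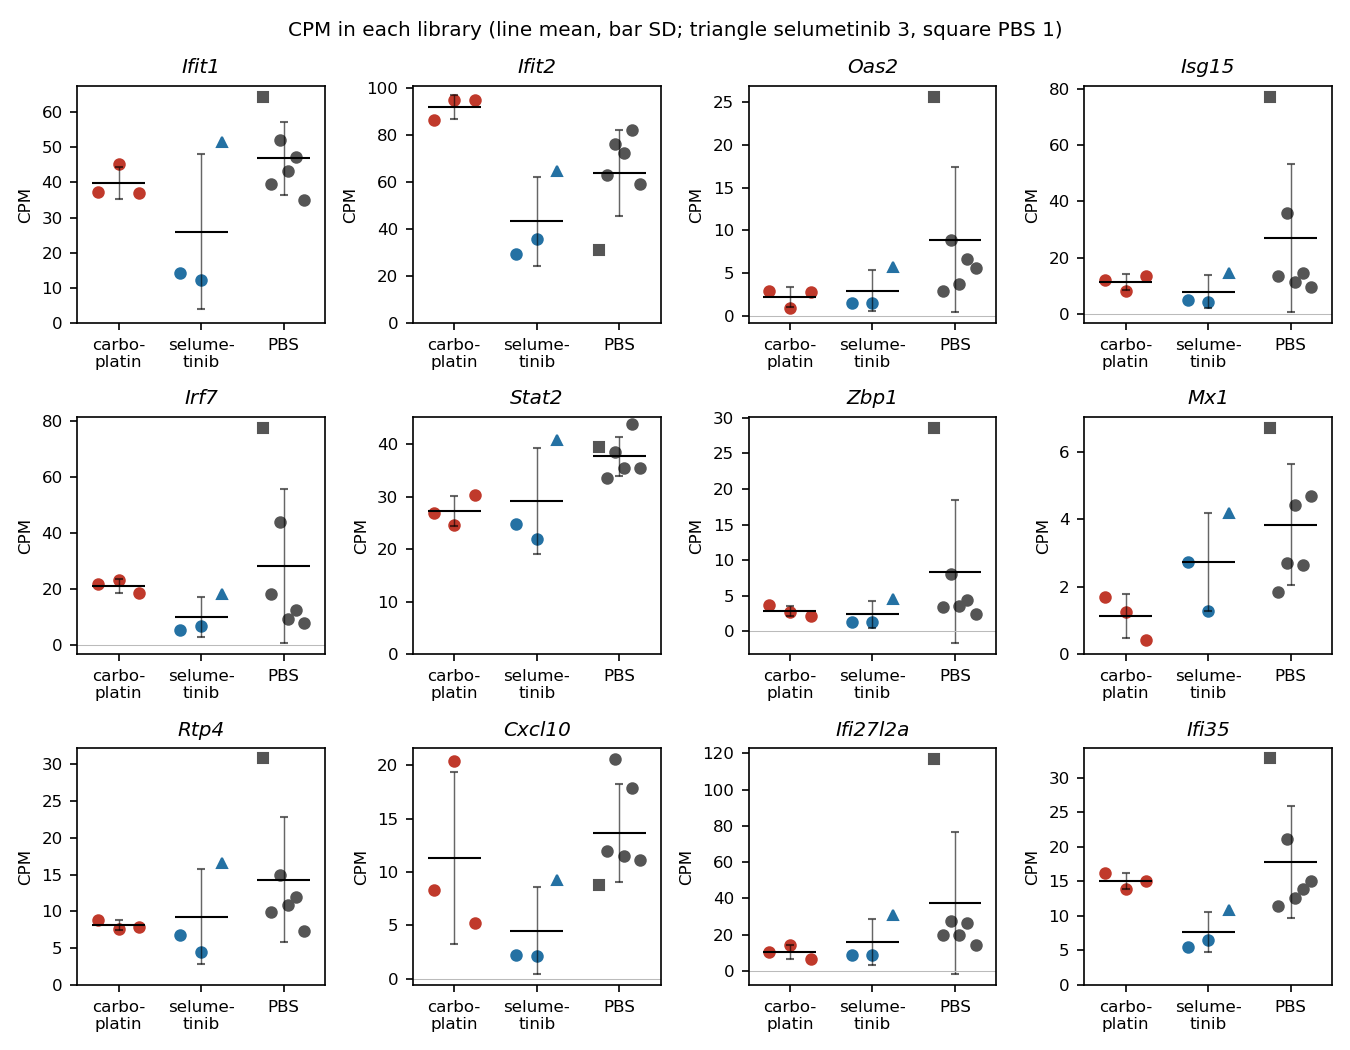
CPM (vertical axes) of 12 of the genes in carboplatin (3 libraries), selumetinib (3) and PBS (6); each point is a library, lines are means and bars are SD. The triangle (selumetinib 3) lies above the other 2 selumetinib points in every panel, and the square (PBS 1) is the highest PBS point except for Ifit2, Stat2 and Cxcl10.

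The first comparison, carboplatin against PBS, asks what the drug did to the nerve's transcripts. Of the 30 genes, 29 had a negative log2 fold change, and the median over the 30 was -0.65 against -0.11 over all genes tested, of which 60% were negative. No gene of the 30 passed an adjusted p of 0.05 with edgeR, against 2.09% of all genes tested. At an unadjusted p under 0.05, 6 of the 30 were lower and 0 were higher, against 16.5% of all genes in either direction. That count was 2 without carboplatin 1, 2 without carboplatin 2 and 2 without carboplatin 3, against 10.7% to 12.1% of all genes, and 13 without selumetinib 3, against 19.0%. Oas2, Stat2, Ddx58, Mx1, Gbp2, Ifi44 and Trim30a, 7 of the 30, were below all PBS libraries in every carboplatin library, against 5.23% of all genes, and Ifit2 was above all of them, against 6.97% of all genes. DESeq2 called 1 gene lower, Mx1, against 8.99% of all genes, and limma voom with quality weights called 9 lower and 1 higher, Ifit2, against 29.6% of all genes.
The size of the difference depended on the controls. With PBS 1 to 3 alone as the controls the median of the 30 was -0.85 with 29 negative. EdgeR then called 0 of the 30, against 7 of 18110 genes. At an unadjusted p under 0.05, 11 of the 30 were lower in that fit, against 1952 of the 18110 genes. Without PBS 1, the library with the most muscle RNA, the median of the 30 was -0.46 with 26 negative. EdgeR then called 0 of the 30 against 10.7% of all genes, with 5 of the 30 lower at an unadjusted p under 0.05, against 28.8% of all genes. Leaving out PBS 1 did not balance muscle RNA between the groups. The skeletal muscle markers had a median log2 fold change of 3.55 in that fit, against -3.15 with all libraries. PBS 1 had no Y-linked counts, but neither did carboplatin 1, which stayed in. With PBS 4 to 6 alone as the controls the median of the 30 was -0.30 with 24 negative. EdgeR called 0 of the 30 there against 12.3% of all genes, and at an unadjusted p under 0.05 1 was lower and 1 higher, against 29.3% of all genes. With all 12 libraries and Y-linked expression as a term the median was -0.645 with 29 negative. EdgeR then called 0 of the 30, against 640 of 18344 genes. With PBS 1, selumetinib 1 and selumetinib 2 all left out, a fit chosen after seeing the data, edgeR called Stat2, Ddx58, Gbp2, Ifi44, Ifi27l2a and Trim30a lower, 6 of the 30 against 15.9% of all genes.

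Selumetinib was compared with PBS to ask how MEK inhibition changed expression. All 30 genes had a negative log2 fold change, from -1.83 (Zbp1) to -0.37 (Stat2), with a median of -0.90 against -0.09 over all genes, of which 56.9% were negative. Several marker lists were negative throughout as well: endothelium (8 of 8, median -0.80), pericyte and smooth muscle (8 of 8, -1.05), fibroblast and meninges (8 of 8, -0.72) and mature oligodendrocyte (10 of 10, -0.62). Of the astrocyte markers 5 of 8 were negative (median -0.04), and of the neuron markers 0 of 9 (median 2.14). With edgeR 0 of the 30 and 0% of all genes tested passed, and at an unadjusted p under 0.05, 11 of the 30 were lower, against 24.0% of all genes. With PBS 4 to 6 alone as the controls the median of the 30 was -0.56, edgeR called 0 of the 30 and 0% of all genes, and 5 of the 30 were lower at an unadjusted p under 0.05, against 27.4% of all genes. PBS 4 to 6 all had Y-linked counts and the selumetinib libraries had none, so drug and sex cannot be told apart in that fit. With PBS 1 to 3 alone the median was -1.07, and edgeR called 0 of the 30, against 3 of 18110 genes. At an unadjusted p under 0.05, 14 of the 30 were lower there, against 3768 of the 18110 genes. DESeq2 called Gbp2, Cxcl10, Ifi35 and Xaf1 lower, 4 of the 30 against 13.7% of all genes, and limma voom with quality weights called 27 lower, against 55.3%.
These values rest on selumetinib 1 and 2. Without selumetinib 3, edgeR called 17 of the 30 lower, with a median log2 fold change of -1.58, against 21.6% of all genes called, and 29 were lower at an unadjusted p under 0.05, against 35.5% of all genes. That last count was 2 without selumetinib 1 and 2 without selumetinib 2, against 10.6% and 9.45% of all genes. The 17 were Ifit1, Ifit3, Oasl2, Usp18, Irf9, Stat2, Ddx58, Ifih1, Gbp2, Gbp3, Bst2, Rsad2, Cxcl10, Ifi35, Xaf1, Parp14 and Trim30a. Without selumetinib 1 and 2, where the lone selumetinib 3 is assumed to vary like the other groups, the median was -0.10 with 20 of 30 negative, and edgeR called 0 of the 30 and 0% of all genes, and 0 of the 30 had an unadjusted p under 0.05, against 0.928% of all genes. Without PBS 1 the median was -0.68 and 0 of 30 genes and 0% of all genes were called. Selumetinib libraries all lacked Y-linked counts, and with Y-linked expression as a term, which rests on PBS 1 and carboplatin 1 as the other such libraries, edgeR called Oas2, Isg15, Irf1, Zbp1, Ifi204 and Ifi35 lower, 6 of the 30 against 14.2% of all genes.

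**Figure D4:**
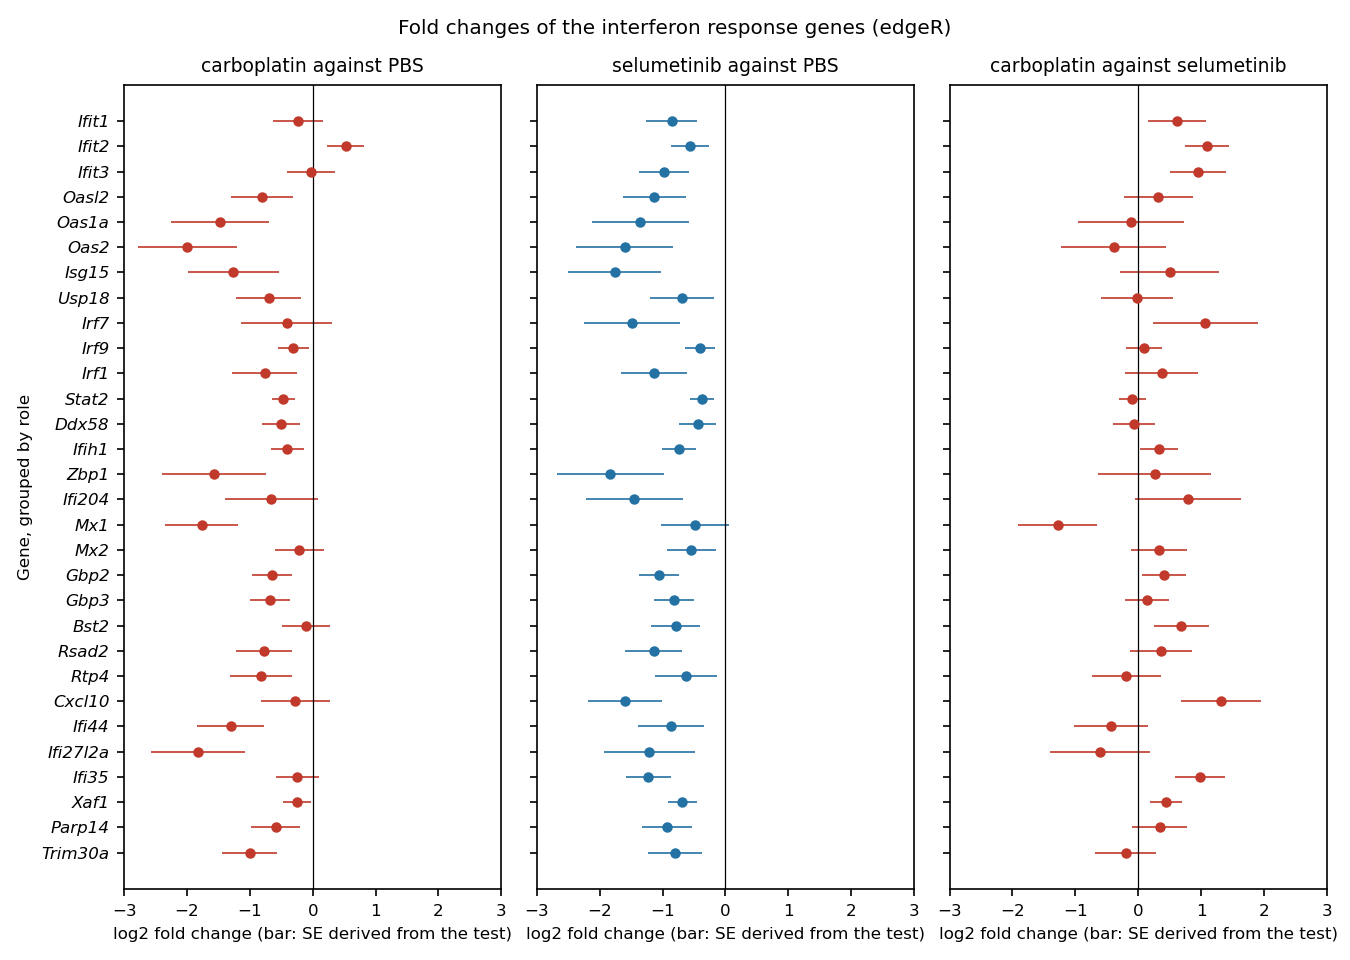
Log2 fold changes (horizontal axes) of the 30 genes (rows) for carboplatin against PBS, selumetinib against PBS and carboplatin against selumetinib; points are edgeR estimates over 12 libraries and bars are the SE derived from the test. Against PBS, 29 of 30 points for carboplatin and 30 of 30 for selumetinib are below 0, and Ifit2 is the 1 gene above 0 in carboplatin.

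Carboplatin and selumetinib share the PBS libraries above, so they were also compared with each other. The median log2 fold change of carboplatin over selumetinib was 0.33, with 20 of 30 genes positive, against -0.01 over all genes. With edgeR 0 of the 30 passed, against 14.0% of all genes tested, and at an unadjusted p under 0.05, 2 were higher, against 31.5% of all genes. Ifit2, Irf7 and Ifi35 were higher in all 3 carboplatin libraries than in all 3 selumetinib libraries, 3 of 30 against 20.9% of all genes. Their log2 fold changes were 1.09 ± 0.35, 1.07 ± 0.83 and 0.98 ± 0.40 (edgeR adjusted p 0.0593, 0.409 and 0.117), and that of Cxcl10 was 1.32 ± 0.64 (adjusted p 0.181). DESeq2 called 1 gene, Ifit2, higher against 26.9% of all genes, and limma voom with quality weights called 19 higher and 1 lower against 58.6%.
Again the sign of the median depended on the selumetinib libraries. Without selumetinib 3, edgeR called 12 of the 30 higher in carboplatin, with a median of 0.97, against 25.3% of all genes. Without selumetinib 1 and 2 the median was -0.52 with 26 of 30 negative, 0 of the 30 were called against 0.0255% of all genes, and 4 of the 30 were lower at an unadjusted p under 0.05, against 9.0% of all genes. Without PBS 1, which belongs to neither group, Ifit2 and Ifi35 were called higher, 2 of the 30 against 33.0% of all genes.

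The genes upstream of the 30 were measured too. Of 12 interferon genes, none had enough counts to be tested: their summed raw counts were 36, 3 and 7 in carboplatin 1 to 3 and 1, 4 and 0 in selumetinib 1 to 3, against 24, 4, 36, 0, 2 and 5 in PBS 1 to 6. Ifnl3 and Ifnl2, type III interferons, held the most, with 16 and 5 counts in carboplatin 1 and 4 and 3 in carboplatin 3, against 10 and 12 in PBS 1 and 21 and 9 in PBS 3, and 0 in the other 8 libraries. Ifnb1 reached 8 counts at most and Ifng 6, and the 5 listed alpha-type genes had 0 counts in every library. At this depth interferon transcripts were at the edge of detection in all groups.

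Of 6 receptor chains tested, 0 were called in carboplatin against PBS and 0 in selumetinib against PBS, where 2.09% and 0% of all genes were called. Ifngr1, a chain of the interferon gamma receptor, had 65.9, 60.1 and 75.8 CPM in carboplatin and 29.7, 25.9 and 43.3 CPM in selumetinib, against 34.3 to 66.1 CPM in PBS. It was higher in carboplatin than in selumetinib by 1.03 ± 0.24 on the log2 scale (edgeR adjusted p 0.0233). Ifnar2, a chain of the type I receptor, was at -0.25 ± 0.18 for carboplatin and -0.31 ± 0.18 for selumetinib against PBS (adjusted p 0.528 and 0.304).

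Of 6 negative regulators 1 was called in carboplatin, against PBS and against selumetinib, where 2.09% and 14.0% of all genes were called. Ptpn11, which encodes the phosphatase SHP2 and also carries growth factor signals to RAS, had 874, 1080 and 1090 CPM in carboplatin, 284, 266 and 362 CPM in selumetinib and 282 to 470 CPM in PBS. The carboplatin libraries were each above all other libraries, and Ptpn11 rose by 1.35 ± 0.18 on the log2 scale in carboplatin against PBS (edgeR adjusted p 0.00393) and was higher by 1.74 ± 0.22 in carboplatin than in selumetinib (adjusted p 0.00346). Pias1, a SUMO ligase that restrains cytokine signalling, had a log2 fold change of 0.51 ± 0.12 for carboplatin against PBS (adjusted p 0.0558).
Of 15 sensors, adaptors and kinases, 0 were called against PBS, where 2.09% of all genes were called for carboplatin and 0% for selumetinib, and Tlr7, an endosomal receptor for RNA, was higher in carboplatin than in selumetinib. Tlr7 had 14.5, 10.7 and 15.7 CPM in carboplatin and 3.29, 4.76 and 7.14 CPM in selumetinib, against 3.73 to 9.69 CPM in PBS. Its log2 fold change was 1.43 ± 0.37 over selumetinib (edgeR adjusted p 0.0309) and 1.01 ± 0.30 over PBS (adjusted p 0.118).

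In the wider lists of induced genes most values were negative as well. Of 54 other type I induced genes tested, 50 had a negative log2 fold change in carboplatin against PBS (median -0.59) and 50 in selumetinib against PBS (median -0.61), against 60% and 56.9% of all genes with medians of -0.11 and -0.09. Without PBS 1 the list's median in carboplatin was -0.36. With edgeR 1 of the 54 rose and 0 fell in carboplatin, against 2.09% of all genes called, and 0 were called in selumetinib, against 0%. At an unadjusted p under 0.05, 11 were lower and 1 higher in carboplatin, against 16.5% of all genes, and 19 were lower and 1 higher in selumetinib, against 24.0%. Znfx1, a helicase that binds viral RNA, was the gene that rose, with 250, 154 and 190 CPM in carboplatin and 58.9, 47.1 and 89.1 CPM in selumetinib, against 70.9 to 103 CPM in PBS. Its log2 fold change was 1.11 ± 0.21 over PBS (edgeR adjusted p 0.0223) and 1.61 ± 0.25 over selumetinib (adjusted p 0.00861).
Adar, which edits double-stranded RNA, was 1 of 4 genes of that list with a positive log2 fold change in selumetinib against PBS, beside Cmpk2 at 0.12, Pnpt1 at 0.14 and Mov10 at 0.0251. It had 59.0, 45.0 and 55.2 CPM in carboplatin, 162 and 174 CPM in selumetinib 1 and 2 and 66.2 CPM in selumetinib 3, against 44.7 to 77.5 CPM in PBS. Selumetinib 1 and 2, the libraries lowest in the 30 genes and highest in neuron markers, were the highest for Adar. It was lower in carboplatin than in selumetinib by -1.33 ± 0.32 on the log2 scale (edgeR adjusted p 0.0252), and its fold change for selumetinib against PBS was 1.10 ± 0.26 (adjusted p 0.0884).

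Of 31 interferon-gamma-induced genes tested, 30 had a negative log2 fold change in carboplatin (median -0.64) and 29 in selumetinib (median -0.75) against PBS, where 60% and 56.9% of all genes were negative. EdgeR called 1 of the 31 lower and 0 higher for carboplatin, against 2.09% of all genes. Ciita, the master activator of MHC class II genes, had 0.907, 0.163 and 0.134 CPM in carboplatin, 2.30, 1.53 and 4.4 CPM in selumetinib and 2.68 to 5.26 CPM in PBS. All 3 carboplatin libraries were below all the others, and the log2 fold change of Ciita was -3.17 ± 0.65 in carboplatin against PBS (edgeR adjusted p 0.0338) and -2.74 ± 0.68 against selumetinib (adjusted p 0.0286). Icam1, an adhesion molecule for leukocytes, was higher in carboplatin than in selumetinib by 1.11 ± 0.32 (adjusted p 0.0429). The genes of these lists and the lists themselves were not tested as sets, and carboplatin and selumetinib share their PBS controls in these counts.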

How the data were processed

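RNA-seq of poly(A) RNA was done on 12 optic nerve libraries, grouped by the treatment label (carboplatin 3, selumetinib 3, PBS 6). The authors deposited 1 table of raw counts per Ensembl gene. The submitters' processing notes name STAR and HTSeq, FastQC, Trimmomatic, DESeq2 and the build mm10. The tool versions, the annotation, the strand setting and any filter are not given in the sources used here. Counting without strand, or dropping reads shared between copies, could change values of overlapping or duplicated genes.

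Low counts were removed with filterByExpr at its default minimum count of 10 and minimum total of 15. With TMM scaling, 1 robust quasi-likelihood model of all 12 libraries was fitted in edgeR 4.0.16 under R 4.3.3. The common dispersion was 0.272. P-values were Benjamini-Hochberg adjusted over 18344 genes and called under 0.05. The SE is the absolute log2 fold change divided by the square root of the F statistic, so it is derived from the test. Log2 CPM used a prior count of 2. GENCODE M21 (GRCm38, equal to mm10) holds 34490 of the gene IDs and gave coordinates and exon lengths. Promoter windows are those of RefSeq.

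The 30 genes and all lists were chosen with earlier results of these data known. Every one of the 30 could be named. Values in every library were planned for genes called and otherwise for the gene of each role with the largest ratio of highest to lowest CPM. Ifit2, Ifit3, Stat2, Ddx58, Gbp2, Ifi35, Ifi44 and Trim30a were added after their values were seen. Of the pathway lists, genes called and those with the smallest p were eligible, and the choice among them was made with their values in view. Cmpk2, Pnpt1, Mov10, Ifnl2 and Ifnl3 were named after their values were seen. Of the 138 genes written into the pathway lists, 131 were in the table. The JAK and STAT list is not reported here. Alternatives were DESeq2 1.42.0, limma 3.58.1 voom with quality weights, scaling by upper-quartile or RLE factors, other filters, other control sets, a Y-linked term, a replicate block, a fold of at least 2 and each library left out. Fits without PBS 1, selumetinib 1 and selumetinib 2, and without selumetinib 1 and 2, were chosen after seeing the data. The fits were tried on simulated counts with 1 common dispersion and no library set apart. That trial therefore does not cover a library like PBS 1 or a split group like selumetinib.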

Additional observations from a re-analysis of the deposited data

Results flagged for a closer look

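PBS 1 lay apart from the other 5 PBS libraries for 11 of the 30 genes. For these the gap between PBS 1, the highest, and the next library, divided by the range of the 6 libraries, was above Dixon's critical value for 6 samples. The ratio was 0.873 for Ifi27l2a, 0.788 for Zbp1, 0.766 for Ifi204, 0.740 for Oas2 and 0.714 for Parp14. It was 0.690 for Ifi44, 0.685 for Oas1a, 0.679 for Rtp4, 0.665 for Oasl2, 0.653 for Ifih1 and 0.630 for Irf1. Chance flags about 1 in 20 such groups, and the 30 genes share these 6 libraries, so the 11 are not independent. The rule was applied to the 30 genes alone, so the share of all genes tested that it would flag is not known. PBS 1 was the highest of the 12 libraries for 30.2% of all genes tested, so a high PBS 1 is not particular to the 30. PBS 1 is also the library with the most RNA of skeletal muscle markers and the only PBS library without Y-linked counts. The part of either in these values was not tested.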

How the results depend on the processing

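With edgeR 0 of the 30 genes passed in each comparison under RLE or upper-quartile factors, either filter, only the 2 groups compared and PBS 1 to 3 as the controls, and the median log2 fold changes moved by less than 0.426, the SD over the PBS libraries. For carboplatin against PBS, DESeq2 called 1 gene lower, limma voom 9 lower and 1 higher, and the fit without PBS 1, selumetinib 1 and selumetinib 2 called 6 lower. With 1 library left out in turn the count stayed at 0 and the median between -0.72 and -0.46. For selumetinib against PBS, DESeq2 called 4 lower, limma voom 27 and the Y-linked term 6. With 1 library left out the count ran from 0 to 17 and the median from -1.58 (without selumetinib 3) to -0.62 (without selumetinib 2). The median was -0.10 without selumetinib 1 and 2, and 0.0894 without PBS 1 as well. For carboplatin against selumetinib, DESeq2 and the Y-linked term called 1 higher each, PBS 4 to 6 as the controls 2 higher, and limma voom 19 higher and 1 lower with a median of 0.86. With 1 library left out 0 to 12 were higher and the median ran from -0.0001618 to 0.97. Without selumetinib 1 and 2 it was -0.52, and -0.52 with 1 gene lower, Ddx58, without PBS 1 as well. The median shift of PBS 1 was 0.33 with plain library totals, where its median over all genes was -0.43.

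Some single genes changed sign, and the cause was not tested. In carboplatin against PBS, limma voom gave 0.0664 for Ifit3 and 0.70 for Irf7, PBS 4 to 6 as the controls gave 0.11 for Ifit3 and 1.11 for Irf7, and the fit without PBS 1, selumetinib 1 and selumetinib 2 gave 0.18 for Irf7. With 1 library left out, Ifit3 ran from -0.10 to 0.088, Irf7 from -0.61 to 0.20 and Cxcl10 from -1.01 to 0.0797. Without PBS 1 the value of Zbp1 was -0.64 and that of Isg15 -0.60. In selumetinib against PBS, PBS 4 to 6 as the controls gave 0.0292 for Irf7. Without selumetinib 1 and 2, Ifit1 was at 0.14, Mx1 at 0.14 and Rtp4 at 0.23, and without PBS 1 as well, Ifit1 was at 0.24, Oas2 at 0.0301, Zbp1 at 0.0337, Mx1 at 0.36, Rtp4 at 0.59 and Ifi27l2a at 0.51.

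With a replicate block 0 of the 30 were called in each comparison, with medians of -0.82, -1.25 and 0.43 and with 5, 2 and 50 of all genes called. Deviations of same-numbered libraries correlated at -0.13 to 0.38, not above 0.1 in every pair. Only replicates 1 to 3 were compared, so selumetinib was not set against PBS 4 to 6. These values therefore do not decide whether libraries were paired. In the replicate block PBS 4 to 6 each stood alone under their number, so they added nothing to the group differences. Depth limits the genes with few reads: Mx1 had 12 counts in 1 library, and the interferon genes could not be tested.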
